A study of Gallus gallus with 6 samples.

Results

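The microRNAs (miRNAs) compared here are the mature sequences of exactly 22 nt that were listed for the chick embryo heart at day 14 of incubation (stage HH40) and at day 4 (stage HH24), the last and the earliest of 6 stages sequenced. Known miRNAs and sequences without a miRBase name (NSSCs in the terms of the study) were pooled and each sequence was taken once, without regard to its level. This gave 46 sequences of 22 nt, 43 in the day 14 list and 20 in the day 4 list, of 158 sequences of 22 nt and 830 sequences of any length in the 6 libraries. Both hearts came from unmanipulated embryos of hatchery eggs of a strain that no source used here names, and each stage was 1 pool of hearts sequenced as 1 library. There is therefore no replicate check, no test was run between the stages, and the intervals below cover counting error only.

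A miRNA is cut from a hairpin precursor and guides a silencing complex to messenger RNAs, which it recognises chiefly through its seed, bases 2 to 8 from the 5′ end. Members of a family share the seed, and many miRNA genes lie in clusters that are transcribed together. In the developing heart, miRNAs of the miR-17-92 cluster are known from mice to favour cardiomyocyte proliferation, let-7 is known for its accumulation as tissues mature, and miR-1 and miR-133 are the classical muscle miRNAs. The heart also holds endothelium, fibroblasts, valve mesenchyme, nerves and blood, and in such bulk RNA a lower share of a cell type and less of a miRNA per cell cannot be told apart.

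The sequences that carry the comparison are given first, 5′ to 3′ as deposited, with the seed in capitals. The first set holds the miRNAs with the most reads in both lists, and the let-7 sequences listed in both are numbered by their reads on day 14.
miR-26: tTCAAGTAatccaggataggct
miR-10: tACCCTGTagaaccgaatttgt
miR-140: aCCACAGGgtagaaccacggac
miR-148: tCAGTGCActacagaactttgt
miR-22: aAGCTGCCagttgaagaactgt
miR-92: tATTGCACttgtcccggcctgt
let-7 member 1: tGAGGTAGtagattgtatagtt
let-7 member 2: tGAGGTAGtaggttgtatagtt
let-7 member 3: tGAGGTAGtagtttgtgctgtt
let-7 member 4: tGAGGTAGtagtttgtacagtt
miR-100: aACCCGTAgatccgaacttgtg
miR-99: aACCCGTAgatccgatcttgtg

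In this set only let-7, and miR-100 with miR-99, share a seed. miR-100 and miR-99 differ by 1 base, A16T counted from the 5′ end of miR-100. let-7 member 2 differs from member 1 by A12G, member 3 by A12T, A17G, T18C and A19T, and member 4 by A12T and T18C. The genome mapping allowed 1 mismatch, whereas the paper describes its comparison with mature miRBase sequences as allowing none. Whether reads of such near-identical sequences were exchanged was not tested. The split between miR-100 and miR-99 and between let-7 members may therefore be less certain than their sums.

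The lists of both stages were small and nearly equal in reads. The day 14 list held 46 sequences with 16000 reads in all, and the day 4 list held 38 sequences with 17575 reads. Reads of 22 nt were 15679 on day 14, or 98% of the listed reads (97.8 to 98.2, 95% Wilson interval), and 16515 on day 4, or 94.0% (93.6 to 94.3). On days 6 and 12 the 22 nt reads were 87.5% and 71.0% of the listed reads, whereas on days 8 and 10 they were 0.148% and 0.339%. The lowest listed abundance was 6 reads in both lists, so a sequence written here as not listed may have been present below that level. It may also have been present above it, since being unlisted sets no upper limit on the reads. The listed reads were 7.01% on day 14 and 0.629% on day 4 of the totals to which the deposited expression values were scaled. What kept other reads off the lists was not tested. No fold is given against a sequence that was not listed.

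The scale decides most directions in this comparison. Shares were taken of all 22 nt reads, and again with miR-10 left out of both totals, since miR-10 alone held 14161 of the day 4 reads. Leaving it out changed the totals to 12515 reads on day 14 and 2354 on day 4, and moved the log2 ratio of every other miRNA by -2.49. The deposited RPM values, reads per 1000000, were scaled to 228290 reads on day 14 and 2793093 on day 4, of which the listed 22 nt reads were 6.87% and 0.591%. Both totals are lower than the clean reads that the paper gives for these libraries, and the reason was not tested. Going from shares of all 22 nt reads to RPM adds 3.54 to every log2 ratio. In RPM all 14 families listed in both libraries were higher on day 14. Their log2 ratios ran from 1.45 to 7.37, with a median of 5.88.

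miR-10 differed more between the hearts, in percentage points of 22 nt reads, than any other family. Its gene lies at chr7:17389110-17389131 on the minus strand in the build of the deposited lists (Gallus gallus v.2.1). In the RefSeq annotation of GRCg7b the chicken gene is MIR10B, inside HOXD3 and beside HOXD4, and HOX genes set position along the body axis. miR-10 had 3164 reads on day 14, or 20.2% of the 22 nt reads (19.6 to 20.8), against 14161 reads on day 4, or 85.7% (85.2 to 86.3). The log2 ratio of shares, day 14 over day 4, was -2.09 (-2.13 to -2.04), a share 4.25-fold lower on day 14, while in RPM miR-10 was higher on day 14, at 13860 RPM against 5070 RPM, a log2 ratio of 1.45. Of the libraries between them, miR-10 held 82.7% of the 22 nt reads on day 6 and 18.7% on day 12, and it was not listed at 22 nt among the 1800 such reads of day 8 or the 6007 of day 10. miR-196, which also lies in HOX clusters, had 23 reads on day 4 at 22 nt and was not listed on day 14 at any length, and miR-615, the remaining HOX cluster miRNA of the list, was in neither.

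Among the families present in both lists, 11 of 14 (78.6%) had a share at least 2-fold higher on day 14 when miR-10 was in the totals, and 1 of 14 (7.14%), miR-10 itself, was at least 2-fold lower. The median log2 ratio over the 14 families was 2.34. Without miR-10, 1 of 13 families (7.69%) was at least 2-fold higher and 5 of 13 (38.5%) at least 2-fold lower, with a median of -0.08. By exact sequence, 11 of 17 (64.7%) were at least 2-fold higher and 2 of 17 (11.8%) lower with miR-10 in the totals, with a median of 1.29. Without it, 1 of 16 sequences (6.25%) was higher and 8 of 16 (50%) were lower, with a median of -0.94. These counts run over every family or sequence listed in both, so each share is its own background. In RPM, all 17 sequences were at least 2-fold higher on day 14.

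**Figure D1:**
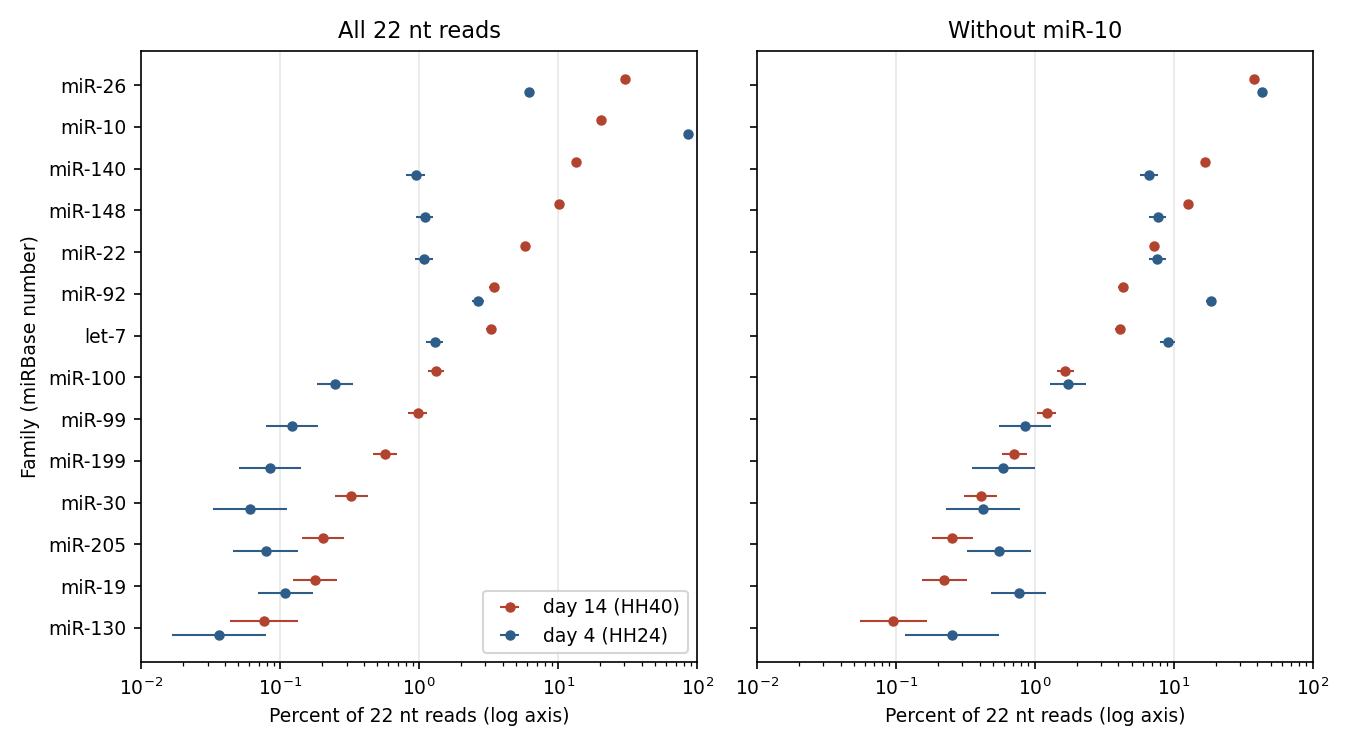
Percent of 22 nt reads on a log axis for the 14 families listed on day 14 (red) and day 4 (blue), with all 22 nt reads as the total (left) and without miR-10 (right). Points are single libraries and bars are 95% Wilson intervals. With miR-10 in the total, 13 families lie higher on day 14, and without it 4 of 13 do.

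miR-140 was the family with the highest ratio among the 14 listed in both. Leaving out miR-10 or using RPM moves every ratio by 1 constant, so this rank could not differ between these scales. It is known for its role in cartilage in mice and lies inside WWP2 in RefSeq, at chr11:21030701-21030722 on the plus strand in the deposited lists. miR-140 had 2111 reads on day 14 against 156 on day 4, which was 13.5% of 22 nt reads (12.9 to 14) against 0.945% (0.808 to 1.10). Its log2 ratio was 3.83 (3.60 to 4.07), and without miR-10 it was 1.35 (1.12 to 1.57), with shares of 16.9% and 6.63%. It thus stood higher on day 14 on both share scales, and in RPM, where all 14 families did. miR-455, the other cartilage miRNA of the list and located inside the collagen gene COL27A1, had 16 reads on day 14 and was not listed on day 4 at any length.

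miR-148 was the next in order. Its RefSeq gene MIR148A lies between annotated genes, and the deposited position is chr2:32053546-32053567 on the minus strand. It had 10.1% of the 22 nt reads on day 14 (9.61 to 10.6) against 1.10% on day 4 (0.948 to 1.27), or 12.6% against 7.69% without miR-10. The log2 ratio was 3.20 (2.98 to 3.42), and 0.71 (0.50 to 0.93) without miR-10. The whole interval thus lay above 0 on each scale, but without miR-10 the difference was under 2-fold at 22 nt, and past 2-fold when all lengths were counted, at a log2 ratio of 1.21 (1.00 to 1.43).

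miR-26 and miR-22 changed direction or lost it when miR-10 left the totals. miR-26, an abundant miRNA of heart and other tissues that lies inside CTDSPL, led the day 14 list with 4718 reads, or 30.1% (29.4 to 30.8), and had 1023 reads on day 4, or 6.19% (5.84 to 6.57). Its log2 ratio was 2.28 (2.19 to 2.37) with miR-10 and -0.21 (-0.28 to -0.13) without it, where its shares were 37.7% on day 14 and 43.5% on day 4, and with all lengths counted in place of 22 nt it was 0.29 (0.21 to 0.38) without miR-10. miR-22, known as a muscle-enriched miRNA in mice, had 901 reads on day 14 and 179 on day 4. Its log2 ratio was 2.41 (2.18 to 2.64) with miR-10 and -0.08 (-0.30 to 0.14) without, where the shares of 7.20% and 7.60% had overlapping intervals. Neither family was 2-fold apart without miR-10.

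miR-92 was among the families with the lowest ratios once miR-10 was left out, and the lowest of the 13 in the shares given here, though miR-19 or miR-205 was lower in 3 of the alternatives. It belongs to the miR-17-92 cluster and lies at chr1:152248079-152248100 on the minus strand, within the span that RefSeq gives to GPC5. miR-92 had nearly the same reads in both lists, 539 on day 14 and 438 on day 4. Its share was 3.44% (3.16 to 3.73) against 2.65% (2.42 to 2.91), a log2 ratio of 0.37 (0.20 to 0.55), whereas without miR-10 it was 4.31% against 18.6%, a log2 ratio of -2.11 (-2.28 to -1.94). Its cluster neighbour miR-19, listed 94 nt away, had 22 reads on day 14 and 18 on day 4, with log2 ratios of 0.36 (-0.53 to 1.26) and -2.12 (-3.02 to -1.22). The 9 families of the list for this and the related clusters were represented at 22 nt by miR-92 and miR-19 alone. As a family, miR-19 had 28 and 18 reads, with log2 ratios of 0.71 and -1.77. miR-18 was listed on day 4 at 23 nt with 14 reads and miR-20 with 14 and 11 reads in 2 sequences, and miR-17, miR-25, miR-93, miR-106 and miR-363 were in neither list.

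The let-7 family held 7 sequences on day 14 and 4 on day 4, all with the same seed. It had 516 reads on day 14 and 213 on day 4, or 3.29% against 1.29%, a log2 ratio of 1.35 that became -1.13 without miR-10 (-0.63 with all lengths counted), where the shares were 4.12% and 9.05%. Member 1 had 190 reads on day 14 and 87 on day 4. Member 2 had 0.918% of the 22 nt reads on day 14 and 0.375% on day 4. Member 3 had 47 and 31 reads, and member 4 had 38 and 33. Without miR-10 all 4 were at least 2-fold lower on day 14, with log2 ratios of -1.28, -1.19, -1.81 and -2.21, while with it all 4 ratios were above 0, at 1.20, 1.29, 0.68 and 0.28, and the interval of member 4 (-0.39 to 0.95) spanned 0. With all lengths counted and without miR-10, members 1 and 2 were no longer 2-fold apart, at -0.78 and -0.69. Of the let-7 reads in the 4 members listed in both, member 4 held 9.07% on day 14 and 15.5% on day 4, and member 1 held 45.3% and 40.8%. With all 7 sequences of day 14 in the total, member 4 held 7.36% on day 14 (5.41 to 9.95), and member 1 held 36.8%, which was then below its day 4 share. The 3 let-7 sequences listed on day 14 only had 60, 19 and 18 reads.

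miR-100 and miR-99, whose genes each lie near a let-7 gene and whose shared seed is known from mammals to act on the mTOR growth pathway, had 361 reads on day 14 and 61 on day 4 together. miR-100 had 1.33% of the 22 nt reads on day 14 and 0.248% on day 4, with log2 ratios of 2.42 (1.94 to 2.90) with miR-10 and -0.07 (-0.55 to 0.41) without. miR-99 had 153 and 20 reads, with ratios of 3.01 (2.34 to 3.68) and 0.52 (-0.14 to 1.19). Without miR-10 both intervals spanned 0 at 22 nt, whereas with all lengths counted miR-99 stood at 1.02 (0.35 to 1.69).

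The 4 remaining families listed in both had fewer than 100 reads in either library. miR-199, found in fibroblasts and mesenchyme and located inside DNM1, had 89 reads on day 14 and 14 on day 4, with log2 ratios of 2.74 (1.93 to 3.56) with miR-10 and 0.26 (-0.55 to 1.07) without. miR-30 had 51 and 10 reads in all, a ratio of 2.43 that became -0.06 without miR-10, and its sequence listed in both had 33 and 10 reads. Its second sequence was listed at 23 nt on day 4, and with all lengths counted the family had 51 and 24 reads, a ratio of 1.22 (0.52 to 1.92) with miR-10 and -0.82 (-1.52 to -0.13) without. miR-205, known from epithelia, had 32 and 13 reads in all. As a family its log2 ratio was 1.37 (0.45 to 2.30) with miR-10 and -1.11 (-2.04 to -0.18) without. Its sequence listed in both had 6 reads on day 14 and 13 on day 4. With miR-10 in the totals, only that sequence and miR-10 had a lower share on day 14 among the 17 shared 22 nt sequences. The miR-205 sequence was lower without miR-10 too, at log2 ratios of -1.04 (-2.44 to 0.35) and -3.53 (-4.92 to -2.13). In RPM it was higher, at 26.3 RPM against 4.65 RPM. Sequences listed 1 base longer on day 4 are outside this count. With all lengths joined by the first 20 bases and miR-10 in the totals, 3 sequences were at least 2-fold lower and 15 at least 2-fold higher on day 14. miR-130 had 12 and 6 reads, with ratios of 1.07 (-0.34 to 2.49) and -1.41 (-2.82 to 0.00). Without miR-10 the intervals of miR-199, of the shared miR-30 sequence and of miR-130 spanned 0.

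**Figure D2:**
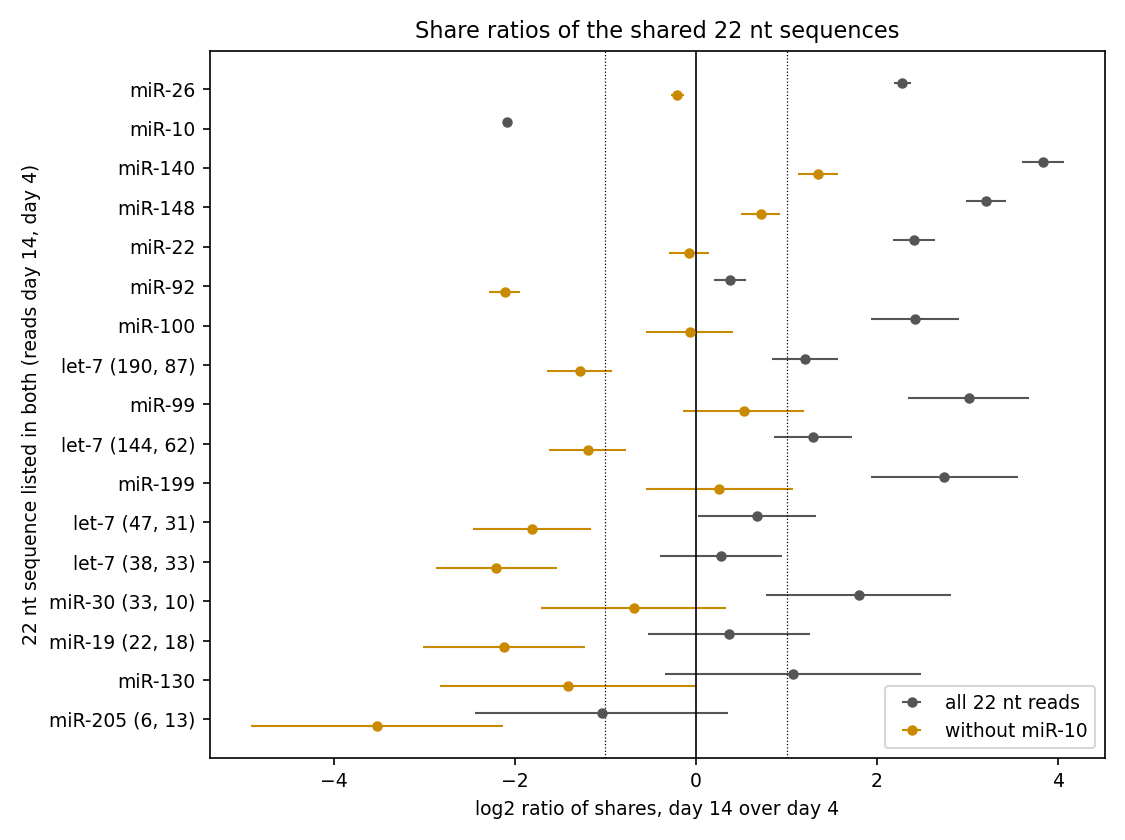
Log2 ratio of shares, day 14 over day 4, for the 17 sequences of 22 nt listed in both libraries, with all 22 nt reads as the total (grey) and without miR-10 (ochre). Bars are 95% counting intervals, dotted lines mark 2-fold, and numbers in brackets are the reads on day 14 and day 4. Every ochre point lies 2.49 below its grey one, and miR-140 alone lies above the upper dotted line on both.

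Ratios between miRNAs of 1 library need no total and so do not move with miR-10 or with RPM. miR-92 had 24.5 reads for each read of its cluster neighbour miR-19 on day 14 and 24.3 on day 4, a log2 difference of 0.01 (-0.91 to 0.93). The let-7 members 1 and 2, listed 389 nt apart on chromosome 12, stood at 1.32 on day 14 and 1.40 on day 4, a log2 difference of -0.09 (-0.65 to 0.48). Member 2 is listed at 4 loci, one of them 8069 nt from miR-100 on chromosome 24, and miR-100 stood at 1.44 to it on day 14 and 0.661 on day 4, a log2 difference of 1.13 (0.48 to 1.77). Thus the reads of the first and second pairs were not distinguishable from a constant ratio, within wide intervals, and those of the third pair differed beyond counting error.

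With miR-26 as the partner, such ratios place the large families relative to miR-26. Their order is that of the share ratios by construction, since the log2 ratio of miR-26 is taken from each. miR-140 had 0.447 reads for each miR-26 read on day 14 and 0.152 on day 4, a log2 difference of 1.55 (1.30 to 1.81). miR-148 stood at 0.335 and 0.177, a difference of 0.92 (0.68 to 1.16), and miR-22 at 0.191 and 0.175, a difference of 0.13 (-0.12 to 0.38). let-7 stood at 0.109 on day 14 and 0.208 on day 4, a difference of -0.93 (-1.18 to -0.68). miR-92 stood at 0.114 and 0.428, a difference of -1.91 (-2.11 to -1.70). miR-10 stood at 0.671 on day 14 and 13.8 on day 4, a difference of -4.37 (-4.48 to -4.26). Set directly against each other, miR-140 had 3.92 reads for each miR-92 read on day 14 and 0.356 on day 4, a log2 difference of 3.46 (3.16 to 3.76). In this order only the interval of miR-22 against miR-26 spanned 0.

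**Figure D3:**
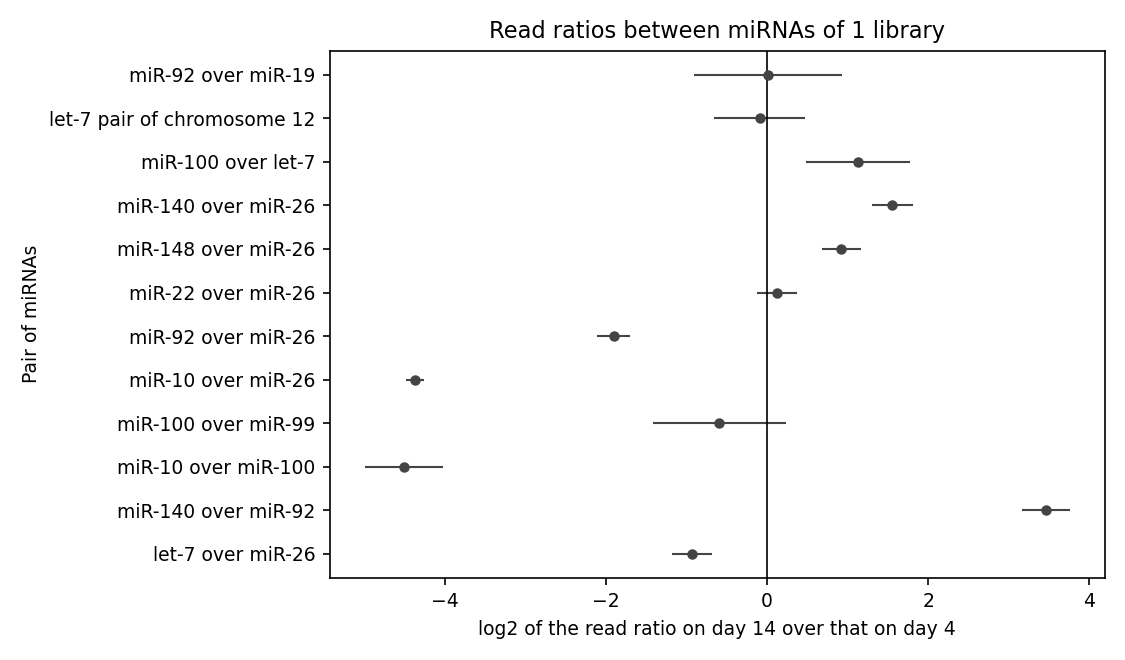
Log2 of the read ratio between the named miRNAs on day 14 over the same ratio on day 4, with 95% counting intervals. The zero line marks an equal ratio in both hearts. The pairs miR-92 over miR-19 and let-7 members 1 over 2 sit at 0.01 and -0.09, and the miR-10 pairs lie lowest.

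Apart from miR-10, the abundance order of the miRNAs listed in both hearts was alike. miR-26 ranked 1 of the 14 families on day 14 and 2 on day 4, and miR-10 ranked 2 and 1. miR-140 ranked 3 on day 14 and 7 on day 4, while miR-92 ranked 6 and 3. miR-100, miR-99, miR-205 and miR-130 held the same rank in both. Over the 16 shared sequences other than miR-10, Spearman's rho of the reads was 0.90 and Pearson's r of their log2 values was 0.89, as a description of 2 libraries whose lists share the same lower limit. The 3 largest families held 63.7% of the 22 nt reads on day 14 and 94.6% on day 4. Without miR-10 the 3 largest held 67.2% and 71.1%. Sequences under 100 reads were 30 of 43 on day 14 and 14 of 20 on day 4.

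Shared sequences made up most reads of both lists. The 17 sequences listed in both were 39.5% of the day 14 list and 85% of the day 4 list. They held 89.0% of the 22 nt reads on day 14 (88.5 to 89.5) and 99.7% on day 4, and 86.2% and 98.2% without miR-10. The 26 sequences listed on day 14 only had 1725 reads (6 to 809, median 20), and the 3 listed on day 4 only had 42 reads. Of the 26, 12 were listed at 22 nt also on day 6 and 15 on day 12.

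Part of this difference in lists was a difference in listed length. In 7 of the 26 sequences, the day 4 list held the same sequence with 1 base more at its 3′ end, so their absence at 22 nt is not an absence of the miRNA. The 7 held 1099 reads on day 14, 63.7% of the reads of the 26, and their longer forms held 866 reads on day 4. The 3 pairs with the most reads are shown, the day 14 form before the day 4 form.
miR-181, 22 nt: aACATTCAacgctgtcggtgag
miR-181, 23 nt: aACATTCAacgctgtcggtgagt
miR-21, 22 nt: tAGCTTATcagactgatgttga
miR-21 locus, 23 nt: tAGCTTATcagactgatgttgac
miR-103, 22 nt: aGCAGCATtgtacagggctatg
miR-103, 23 nt: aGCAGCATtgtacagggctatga

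The seed is the same in both forms of each pair. The miR-181 sequence had 809 reads at 22 nt on day 14 and 172 at 23 nt on day 4, and a second miR-181 sequence had 37 and 18. The 22 nt form of miR-21, an miRNA of fibroblasts and other stromal cells, had 116 reads on day 14, and the 23 nt form, which the day 4 list gives as an NSSC, had 523 on day 4. miR-146, known from white blood cells, had 98 and 13 reads, miR-103 had 15 and 119, the second miR-30 sequence had 18 and 14, and the second miR-19 sequence had 6 and 7. Of the other 19 sequences listed on day 14 only, with 626 reads, 10 were known miRNAs whose family was absent from the day 4 list at any length. None of the 3 sequences listed on day 4 only had a longer or shorter form on day 14. The cause of the difference in length was not tested.

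**Figure D4:**
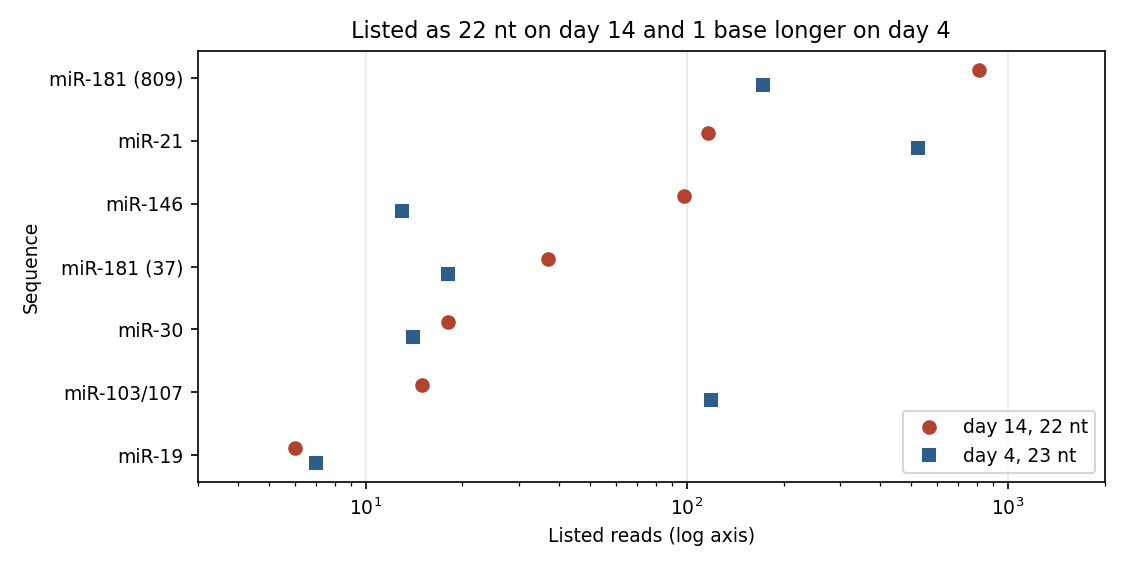
Listed reads on a log axis for the 7 miRNAs listed at 22 nt on day 14 (red circles) and at 23 nt on day 4 (blue squares). Each point is 1 library, and brackets hold the day 14 reads where a family has 2 sequences. miR-181 reaches 809 reads on day 14 and the miR-21 locus 523 reads on day 4.

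miR-133, the muscle miRNA, was the most abundant family that the day 4 list lacked at every length. It was listed in 2 forms that start 1 base apart and so differ in their seed.
miR-133, chromosome 2: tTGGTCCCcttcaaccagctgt
miR-133, chromosome 23: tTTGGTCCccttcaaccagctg

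The form of chromosome 2 had 151 reads on day 14 and the form of chromosome 23 had 71, together 222 reads or 1.42% of the 22 nt reads. RefSeq places the chromosome 2 gene, MIR133A1, inside MIB1 and beside GATA6. The other muscle miRNAs, miR-1, miR-206, miR-208 and miR-499, were in neither list at any length. Of the 5 families of the heart and skeletal muscle list, 1 was thus listed on day 14 and 0 on day 4. miR-2188 followed with 79 reads, and miR-16 and miR-2964 had 40 reads each. miR-16 shares its seed with miR-15, which had 11 reads, and both are known from mammals to restrain the cell cycle. None of these was listed on day 4.

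Markers of other cell types were few in both lists, and their part in the differences was not tested. miR-126, the endothelial marker, was listed only at 21 nt, with 294 reads on day 14 and 60 on day 4. Of the red cell miRNAs, miR-144 had 6 reads at 23 nt on day 4 and was not listed on day 14, and miR-451 was in neither list. Of 5 white cell miRNAs, miR-146 alone was listed by name, and an NSSC of 23 nt with the seed of miR-146 had 10 reads on day 4. Of 5 epithelial ones, miR-205 alone was listed, and miR-200, miR-141, miR-203 and miR-429 were not. Of 5 neural ones, miR-9 alone was listed by name, with 20 reads at 23 nt on day 4. On day 14 an NSSC with 6 reads came from a hairpin that holds the mature miR-9. miR-122, the defining miRNA of liver and the only one of 7 miRNAs of abdominal organs listed by name, had 21 reads on day 14. An NSSC with 7 reads on day 14 overlapped miR-215, another of these 7. miR-204, known from the eye and choroid plexus, had 13 reads on day 4. Of the 6 fibroblast and matrix families, miR-199 and miR-21 were listed at 22 nt on day 14 and miR-199 on day 4. The 23 nt form at the miR-21 locus had 523 reads on day 4, against 116 for the 22 nt form on day 14. The miR-302 family of early embryos was in neither list.

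Summed over the lists of families, shares without miR-10 were as follows. The 11 abundant heart families had 8117 reads on day 14 and 1393 on day 4, or 64.9% and 59.2%. At 22 nt, 6 of the 11 were listed on day 14 and 4 on day 4. miR-26, their largest member, had the lower share on day 14. Of the day 14 reads, 846 were of miR-181, whose 190 reads on day 4 were listed at 23 nt and so not counted. The cartilage list had 2127 and 156 reads, or 17% and 6.63%, of which miR-140 alone held 2111 and 156. The miR-17-92 list had 567 and 456 reads, or 4.53% and 19.4%, of which miR-92 alone held 539 and 438. The list of let-7 with the miR-99/100 clusters had 877 and 274 reads, or 7.01% and 11.6%. With miR-10 in the totals each of these 4 lists had a higher share on day 14.

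The NSSCs of 22 nt had few reads in both hearts, 6 to 14 reads each for 5 sequences on day 14 and 6 reads for 1 on day 4, and none was listed in both. They are shown because the deposited lists of these hearts give them no miRBase name.
NSSC on chromosome 23: tGGGAGAGgattgtttacgcct
NSSC on chromosome 19: aGTGCAATgttaaaagggcatt
NSSC on chromosome 3: aTGACCTAtgaattgacagact
NSSC on chromosome 1: gCCCGGCGcgggcgaggccgcg
NSSC on chromosome 28: tAAAGCTAgagaaccgaatgta
NSSC on chromosome 17, day 4: aGAATTGTgtctggacatctgt

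Most of them sat on hairpins that the lists of other stages give as known. The sequence at chr23:5249693-5249714, with 14 reads, lay on the arm opposite the miR-30 sequence of its hairpin, whose reads on that arm, 2 and 6, were deposited beside it. The sequence at chr19:7145039-7145060, with 9 reads, overlapped the miR-130 sequence listed on days 6 and 10. The sequence at chr3:19924818-19924839, with 7 reads, overlapped the miR-215 sequence of day 10 and had 1484 reads on day 6 and 2420 on day 12. The chromosome 28 sequence, with 6 reads, came from a hairpin that holds the mature miR-9. The chromosome 1 sequence, with 7 reads, lay on no known hairpin, and its own hairpin had the highest G and C content of the set at 87.5%. On day 4 the single NSSC, at chr17:5577871-5577892 on the plus strand, lay opposite the miR-2964 hairpin, whose miRNA had 40 reads on day 14 from the minus strand.

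The sequences listed in both and those listed on day 14 only had similar precursors. The median G and C content of the hairpins was 46.9% for the sequences listed on day 14 only and 47.9% for those listed in both, and the median folding energy was -31.1 and -33.2 kcal/mol. The first base was T in 71.1% of 22 nt reads on day 14 and 97.4% on day 4. Without miR-10, which itself starts with T, it was T in 63.8% and 82.1%, and A in 35.4% and 17.7%, where miR-140 and miR-22 are the largest that start with A. Star strands, the opposite arms of the same hairpins, were given few reads: miR-199 had 15 star reads beside 89 on day 14 and 4 beside 14 on day 4, and miR-26 and miR-140 had 1 each on both days.

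The predicted targets deposited for each library did not allow a comparison of the hearts by target. The day 14 list held 840 lines for 10 miRNAs and the day 4 list 619 lines for 10, and each target name appeared once in a list. Over all miRNAs, 437 target names stood in both lists. let-7a had 35 targets on day 14 and 31 on day 4 with 0 names in common, although let-7 was listed at both stages. Of the 31 day 4 lines of let-7a, 22 (71.0%) carried a score and a duplex energy that also stood in the day 14 list, each under another target name. The same held for let-7j, with 27 of 31 lines, for miR-103, with 79 of 117, for miR-181a-5p, with 55 of 72, and for miR-27b, with 67 of 88, and no line of the 5 miRNAs had the same name, score and energy in both lists. Target names are therefore not used here.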

How the data were processed

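Small RNA of pooled chick hearts was sequenced as 1 library per stage, and the days 14 and 4 lists were used. The authors trimmed adapters, kept unique reads with their counts, mapped them with BLAT to Gallus gallus v.2.1 with at most 1 mismatch, searched miRBase and folded the hairpins. TopHat and Cufflinks stand in the submitters' processing notes without version. The deposited abundance is a read count per mature sequence, repeated at each locus. The deposited RPM values of a library, as a set, equalled its counts times 1 constant within 0.05 reads. The names of the NSSCs stood in another order than their values, so RPM was taken here as the count times that constant. G and C content in percent, hairpin energies (unit other, in kcal/mol), target scores (minimum 100) and duplex energies (below -20 kcal/mol) were deposited by the authors. The p-value of each hairpin was not used, nor were lines without sequence or abundance.

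Sequences of 22 nt were counted once each and summed by miRBase number, with miR-103 and miR-107, and miR-204 and miR-211, as 1 family each. Depth was 15679 reads of 22 nt on day 14 and 16515 on day 4. Shares carry 95% Wilson intervals, and log2 ratios the 95% counting interval of a ratio of shares. The interval of the ratio was tested on data simulated with counting error alone, which cannot show how it holds for spread between libraries. A log2 ratio of 1 or more in size counted as called. PCR copies are not independent molecules. Named miRNAs were those listed in both libraries, of those listed in 1 library only the 10 with most reads in each, and all NSSCs of 22 nt. Members of the gene and marker lists, and sequences with a form of another length, were named as well, those with another length after their values were seen. Members and lists were chosen with earlier results of these data known. Alternatives were the known list alone, all lengths, a minimum of 10 reads, each locus added, RPM, and NSSCs joined to the known miRNA they overlap by 15 nt. RefSeq gene names came from GRCg7b, where 27 of 40 loci matched 1 gene, and no coordinates were taken from it. Python 3.11.15, numpy 2.4.6, scipy 1.17.1 and matplotlib 3.10.9 were used.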

Additional observations from a re-analysis of the deposited data

Results flagged for a closer look

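Reads of other lengths fell outside the 22 nt comparison, and 5 sequences of these lengths had 50 reads or more. miR-126 at 21 nt had 294 reads on day 14 and 60 on day 4. The NSSC of 23 nt at the miR-21 locus had 523 reads on day 4. On the same day the 23 nt form of miR-181 had 172 reads and that of miR-103 had 119. With 1 library per stage, neither a sample far from its group nor a difference between contrasts could be looked for.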

How the results depend on the processing

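No paired analysis was possible because each stage has 1 library, and for the same reason no library could be left out. The 17 shared sequences stayed within 1.5 times under the 5 alternatives run on it, and became 27 when all lengths were joined by their first 20 bases, a setting chosen after seeing the data. In RPM the ratio of miR-10 was 1.45 and that of the shared miR-205 sequence 2.50, both reversed, with 17 sequences at least 2-fold higher, and 0 families and 0 sequences lower. With all lengths, 2 families were at least 2-fold lower with miR-10 and 4 at least 2-fold higher without it. By sequence these counts were 1 lower and 3 higher. When joined by the first 20 bases they were 3 lower with miR-10 and 4 higher without it, and 11 were lower without it. A minimum of 10 reads left 1 sequence lower with miR-10. The share of listed reads of 22 nt on day 4 was 97.0% in the known list alone and 92.5% with each locus added. Under the other alternatives run, no called ratio changed sign, and the causes of these shifts were not tested. Also chosen after seeing the data were shares without both miR-10 and miR-26, and shares among sequences listed in both only. The first moved all 19 ratios by 1 constant, which was small enough to leave each within its interval. In the second, 17 of 20 ratios stayed within their intervals. With all lengths and without miR-10, miR-26 stood at 0.29, miR-22 at 0.42 and miR-100 at 0.43, on the other side of 0. miR-148 at 1.21 and miR-99 at 1.02 were then past 2-fold. No longer past it were let-7 at -0.63, its members 1 and 2 at -0.78 and -0.69, miR-130 at -0.91 and miR-205 at -0.61. With NSSCs joined and without miR-10, miR-130 stood at -0.60, also under 2-fold. miR-19 was below miR-92 with all lengths (-1.75 against -1.61), with a minimum of 10 reads, and, with miR-205 at -3.34, among sequences listed in both only. Precision is limited by the 2354 day 4 reads left without miR-10.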
